A study of Homo sapiens with 18 samples.

Results

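ATF4, ATF3 and 8 genes known to act with them in the integrated stress response were read across 18 RNA libraries from irradiated and non-irradiated human cell cultures. The 10 genes are ATF4, ATF3, ATF5, DDIT3, TRIB3, CHAC1, PPP1R15A, ASNS, PSAT1 and PHGDH. They were picked by symbol from tables that list 40916 gene rows each, and every one of them had a row. MCF10A is a non-transformed human mammary epithelial line, here expressing a histone H2B-GFP fusion, and was grown in F12:DMEM with horse serum, EGF, hydrocortisone, cholera toxin and insulin. HCT116 is a human line from a colorectal carcinoma. It carried no reporter here and was grown in McCoy's 5A medium with fetal bovine serum. The mixed cultures joined both lines at 50-50 in 1 dish, so their counts are a sum over both. Each culture was either left without irradiation (NIR) or given 10 Gy (IR), with 3 biological replicates in each of the 6 groups. The series text places the harvest at 72 h after irradiation and the sample titles name day 2, and the files do not settle which holds. Polyadenylated RNA was sequenced from a stranded library.

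The integrated stress response is the pathway by which several kinds of stress slow protein synthesis. 4 kinases, each tuned to another stress, phosphorylate the alpha subunit of the initiation factor eIF2, general translation falls, and the mRNA of the transcription factor ATF4 is translated better. ATF4 protein then binds composite C/EBP-ATF response elements with C/EBP partners and induces genes for amino acid synthesis and transport, for tRNA charging, for further transcription factors such as ATF3 and DDIT3, and for the phosphatase subunit PPP1R15A, which returns the pathway to rest. ATF4 is controlled mostly at translation, so its RNA level is not a measure of its protein, and eIF2 phosphorylation was not measured here. ATF3 is also induced through other routes, among them stress kinases after DNA damage.

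The upstream windows of the 10 genes were scanned for 4 motifs, because several of these genes are textbook targets of ATF4. The windows are the 250 bases before each start in RefSeq (GRCh38.p14), and all 10 genes matched, with 18 windows in all. The composite element was searched as TGATGNAAN, the cyclic AMP response element (CRE) as TGACGTCA, the AP-1 site as TGANTCA and the endoplasmic reticulum stress element as CCAAT and CCACG with 9 bases between them, each on both strands. The composite element was found upstream of 3 of the 10 genes, the CRE upstream of 1, the AP-1 site upstream of 2 and the last motif upstream of none. Of all 27305 genes with a window, 3.87% had the composite element, 2.03% the CRE, 8.06% the AP-1 site and 0.0916% the endoplasmic reticulum stress element. Of all 35116 windows the shares were 3.13%, 1.65%, 6.57% and 0.074%. The 4 sites shown are those of the composite element and the CRE, whose genes differ in how they responded. Capitals mark the motif, no printed match overlaps a match of another motif, and each line reads 5′ to 3′ on the strand of its gene.
ASNS, chr7:97872457-97872486, minus strand: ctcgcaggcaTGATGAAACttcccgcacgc
ATF3, chr1:212565206-212565235, plus strand: aaggtcaggaTGATGGAAGgctgtcatatt
CHAC1, chr15:40953251-40953280, plus strand: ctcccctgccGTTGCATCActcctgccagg
PPP1R15A, chr19:48872352-48872381, plus strand: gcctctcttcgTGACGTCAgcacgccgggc
The CHAC1 match lies on the opposite strand, so that the capitals show the reverse complement of the element. The ASNS match ends 60 bases before its start, the PPP1R15A match 51 bases, the ATF3 match 183 bases and the CHAC1 match 202 bases. A match says only that these letters stand in the window.

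Library totals ran from 25.7 to 40.8 M counts, where M stands for 1e+06, and mitochondrially encoded genes took 5.1 to 12.7% of them. MCF10A marker genes summed to 9450 to 10100 CPM (counts per 1e+06 counts of the library) in MCF10A NIR, 761 to 825 in HCT116 NIR and 739 to 828 in Mixed NIR. After irradiation the same sum was 15200 to 15700 in MCF10A, 1520 to 1740 in HCT116 and 1650 to 1920 in the mixed cultures. HCT116 markers summed to 9.15 to 11.2 CPM in MCF10A NIR, 1050 to 1340 in HCT116 NIR and 974 to 1000 in Mixed NIR, and after irradiation to 8.05 to 10.8 in MCF10A, 1750 to 1970 in HCT116 and 1420 to 1500 in the mixed cultures. CDX1 was at 0 in all 9 NIR libraries. TXNIP, a gene of the lists below, was at 260 to 278 CPM in MCF10A NIR, on at most 2 counts in any HCT116 NIR library and at 1.72 to 2.72 CPM in Mixed NIR. By these genes the mixed libraries stood far closer to HCT116 than to MCF10A, with a lower HCT116 marker sum than the HCT116 libraries of the same dose, and their values below are read beside HCT116. The sums rest on few genes, since 5 of the 8 HCT116 markers were under 1 CPM in HCT116 NIR. Against HCT116 NIR, edgeR called 3 of 10 MCF10A markers higher in Mixed NIR and 1 lower (adjusted p under 0.05). Of 5 HCT116 markers tested, 1 was lower and 0 higher, beside 1.15% of all genes lower and 0.887% higher. Against HCT116 IR, 5 of 10 MCF10A markers were higher in Mixed IR and 2 lower. Of 5 HCT116 markers tested there, 3 were lower and 0 higher, beside 3.48% of all genes lower and 5.08% higher. CDKN1A, a cell cycle inhibitor, was at 160 to 178 CPM in MCF10A NIR and 567 to 619 in MCF10A IR. In HCT116 it was at 275 to 352 CPM without and 1510 to 1690 with irradiation.

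1 library stood furthest apart in these genes, and another did so less. Mixed NIR replicate 2 was the highest of its 3 replicates for 9 of the 10 genes, and for 7 of them it lay more than 0.5 on the scale of log2(CPM + 0.5) above the mean of the other 2 libraries. Of 13683 genes, 31.3% were highest in the same library and 1.46% lay that far above. CHAC1 was at 7.79 CPM there against 1.29 and 1.47 in replicates 1 and 3, and ASNS at 11.3 against 3.15 and 3.22. ATF5 was the exception, at 7.07 against 10.6 and 8.12 CPM. Outside the 10 genes, 11 of 12 aminoacyl-tRNA synthetases and 8 of 9 amino acid transporters were also highest in that library. Of 17 genes of the IRE1 and ATF6 branches 5 were, which is near the share over all genes. HCT116 NIR replicate 3 was likewise the highest of its group for 9 of the 10 genes, beside 31.6% of 13860 genes. The median departure of the 10 genes was 0.22 there against 0.57 in the mixed library. Also highest in HCT116 NIR replicate 3 were 8 of 9 amino acid transporters and 8 of 10 other ATF4 targets and partners. Their medians were 0.20 and 0.26. Of 12 aminoacyl-tRNA synthetases 6 were highest there, and of 17 genes of the IRE1 and ATF6 branches 2. Responses of the 10 genes in the mixed cultures, and of other genes where they moved by over 1.5 times or lost a call, are therefore given with and without Mixed NIR replicate 2. No cause of its departure was tested.

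**Figure D1:**
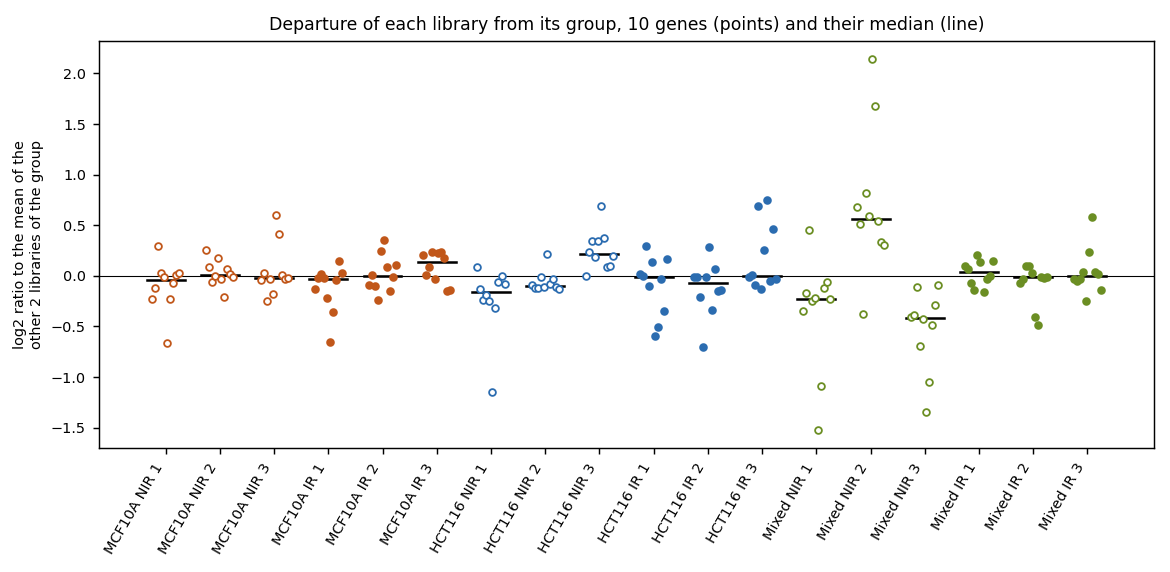
Departure of each of the 18 libraries from its group. The vertical axis is the log2 ratio of a gene's CPM + 0.5 to the mean CPM + 0.5 of the other 2 libraries of its group, points are the 10 genes in the order ATF3, ATF4, ATF5, DDIT3, TRIB3, CHAC1, ASNS, PSAT1, PHGDH and PPP1R15A, lines are their medians, and filled points are irradiated libraries; Mixed NIR 2 has a median of 0.57 and 2 points above 1.5.

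Irradiation moved the 10 genes in both directions, and ATF3 was higher in all 3 kinds of culture. In MCF10A, 4 of the 10 were called higher (ATF3, CHAC1, DDIT3 and PPP1R15A) and 3 lower (PHGDH, PSAT1 and ATF4). In HCT116, 2 were called higher (ATF3 and ATF5) and 5 lower (PHGDH, ASNS, DDIT3, ATF4 and TRIB3). In the mixed cultures, 1 was called higher (ATF3) and 5 lower (PHGDH, ASNS, ATF4, DDIT3 and TRIB3), which became 2 higher (ATF3 and CHAC1) and 2 lower (PHGDH and ATF4) without Mixed NIR replicate 2. A gene was called at an adjusted p under 0.05 in edgeR's quasi-likelihood test over all genes. The changes were wide over the whole transcriptome, with 26.2% of 15154 genes called higher and 29.2% lower in MCF10A. Of 16857 genes in HCT116, 25.3% were called higher and 27.2% lower. Of 16906 genes in the mixed cultures, 24% were called higher and 25.4% lower. The count of higher genes was somewhat above the background share in MCF10A and near or under it in HCT116 and the mixed cultures. These small counts do not set the cultures apart. The 3 lower of 10 in MCF10A were near the share there, while 5 lower of 10 stood above it in HCT116 and in the mixed cultures. With only 10 genes, chosen with earlier results of these data known, no count was tested against its share. Without Mixed NIR replicate 2 the mixed count was 2 lower of 10, near the 22.1% of all genes then called lower. Counted by libraries that did not overlap, 4 genes were higher and 3 lower in MCF10A (30.7% and 29.9% of all genes tested), 2 higher and 5 lower in HCT116 (28.2% and 30.6%), and 1 higher and 3 lower in the mixed cultures (29.8% and 26.7%). The median log2 fold change of the 10 genes was -0.04 in MCF10A, -0.54 in HCT116 and -0.36 in the mixed cultures, beside 0.00, 0.01 and 0.01 over all genes tested. It was -0.13 in the mixed cultures without Mixed NIR replicate 2 and -0.32 in HCT116 without HCT116 NIR replicate 3.

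**Figure D2:**
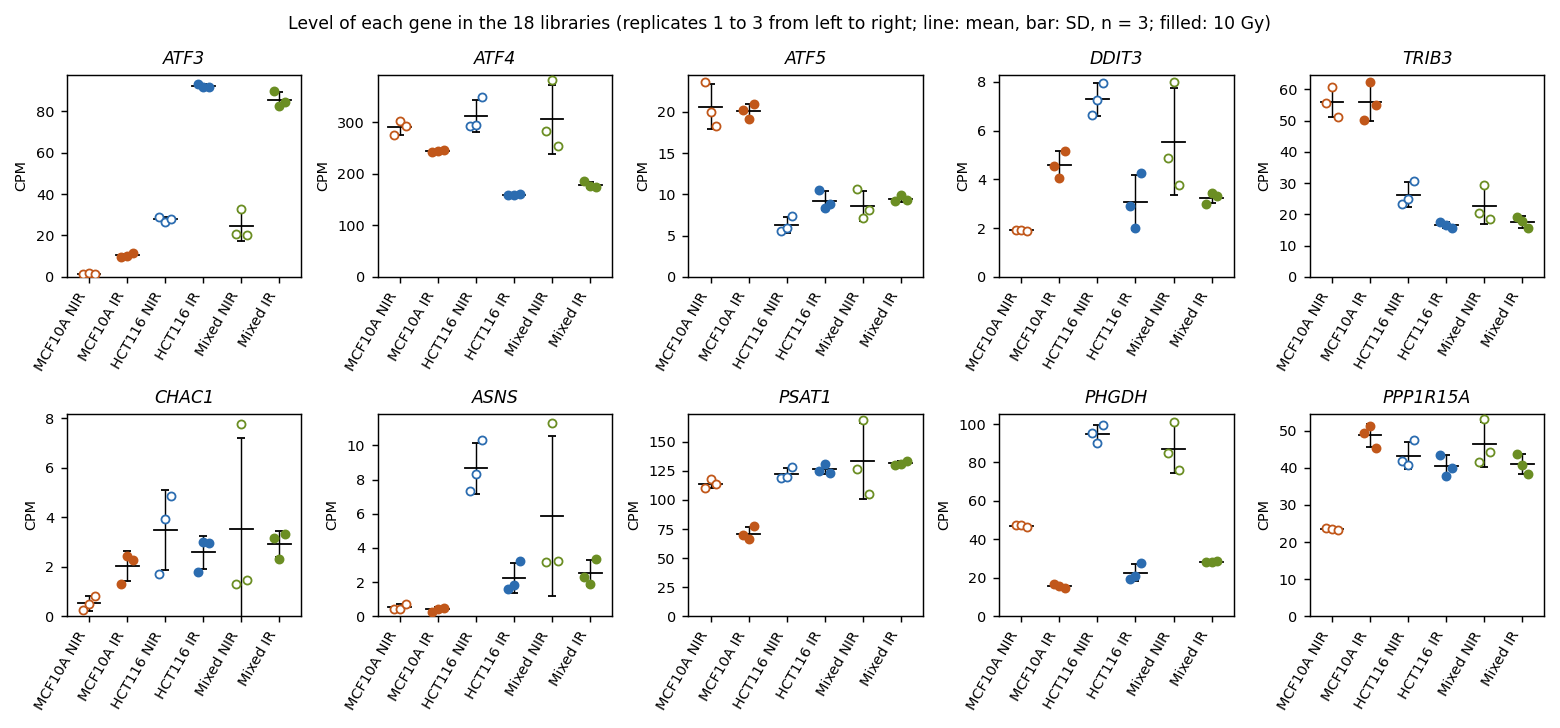
Level of each gene in CPM in the 18 libraries by group. Points are libraries, filled where irradiated, horizontal lines are means and bars are SD (n = 3; bars that pass below 0 are cut at the axis); ATF3 climbs to 91.8 to 93.2 CPM in HCT116 IR, and PHGDH falls in all 3 cultures.

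ATF4 is the transcription factor at the centre of the pathway, encoded on chromosome 22 (39520559 to 39522686, plus strand). Its RNA was at 275, 303 and 294 CPM in MCF10A NIR and at 243, 245 and 246 CPM in MCF10A IR, in replicates 1 to 3. Every irradiated MCF10A library was below every non-irradiated one, by a narrow gap, and ATF4 fell 1.21-fold (log2 fold change -0.27, SE 0.04, adjusted p 6.9e-06). In HCT116 NIR it was at 294, 295 and 349 CPM, and in HCT116 IR at 160, 159 and 161 CPM. The irradiated HCT116 libraries lay within 2 CPM of each other and far under the controls, a 1.94-fold fall (log2 -0.96, SE 0.07, adjusted p 3.2e-11). Mixed NIR had 283, 382 and 254 CPM and Mixed IR 186, 177 and 175 CPM, with no overlap. The log2 fold change in the mixed cultures was -0.80 (SE 0.10, adjusted p 5.8e-07), and -0.61 without Mixed NIR replicate 2, still called. The 3 non-irradiated groups overlapped in ATF4, while MCF10A IR, Mixed IR and HCT116 IR followed in that order of means without overlap.

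ATF3, a stress-induced factor of the same bZIP class that mostly represses its targets, is encoded on chromosome 1 (212565407 to 212620777, plus strand). It was at 1.21, 1.63 and 1.37 CPM in MCF10A NIR and at 9.70, 9.89 and 11.4 CPM in MCF10A IR, a 7.23-fold rise (log2 2.85, SE 0.18, adjusted p 1.6e-13). HCT116 NIR already held 28.9, 26.6 and 27.8 CPM, more than any MCF10A library. HCT116 IR held 93.2, 91.9 and 91.8 CPM, a 3.34-fold rise (log2 1.74, SE 0.07, adjusted p 2.5e-15). The mean difference between irradiated and non-irradiated libraries was 8.93 CPM in MCF10A and 64.5 CPM in HCT116, so the line with the smaller fold had the larger step in level. In the mixed cultures ATF3 stood at 20.7, 33.0 and 20.0 CPM without and 89.6, 82.8 and 84.6 CPM with irradiation. Its log2 fold change there was 1.77 (SE 0.13, adjusted p 1.8e-10), and 2.05 without Mixed NIR replicate 2. The group means spanned 65.9-fold, in the order HCT116 IR, Mixed IR, HCT116 NIR, Mixed NIR, MCF10A IR and MCF10A NIR, and of these neighbours only HCT116 NIR and Mixed NIR overlapped. The window printed for ATF3 holds a composite element, as do those of CHAC1 and ASNS, and the responses of these 3 genes differed.

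ATF5, a close relative of ATF4, is encoded on chromosome 19 (49928906 to 49933935, plus strand), where NUP62 and IL4I1 overlap it on the opposite strand. It was at 23.6, 20.0 and 18.3 CPM in MCF10A NIR and 20.2, 19.1 and 20.9 CPM in MCF10A IR, and these libraries overlapped (log2 -0.06, SE 0.10, adjusted p 0.608). In HCT116 it was at 5.55, 5.90 and 7.39 CPM without and 10.5, 8.30 and 8.82 CPM with irradiation, with no overlap and a log2 rise of 0.56 (SE 0.16, adjusted p 0.00425). The mixed cultures had 10.6, 7.07 and 8.12 CPM without and 9.13, 9.92 and 9.33 CPM with irradiation, and the change of 0.12 (SE 0.14) was not called (adjusted p 0.517), nor without Mixed NIR replicate 2 (-0.00). All 6 MCF10A libraries were above all HCT116 and mixed libraries.

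DDIT3 encodes CHOP, a transcription factor tied to cell death when stress lasts, and lies on chromosome 12 (57516588 to 57520517, minus strand). It moved in opposite directions in the 2 lines. MCF10A NIR held 1.94, 1.92 and 1.88 CPM and MCF10A IR 4.56, 4.05 and 5.17 CPM, a 2.37-fold rise (log2 1.24, SE 0.22, adjusted p 1.9e-05). HCT116 NIR held 6.62, 7.24 and 7.96 CPM and HCT116 IR 2.89, 2.01 and 4.27 CPM, a 2.41-fold fall (log2 -1.27, SE 0.22, adjusted p 3.2e-05). Neither pair of irradiated and control groups overlapped. The line with the lower mean before irradiation had the higher mean after it, where the libraries of the 2 lines overlapped. Mixed NIR had 4.87, 7.99 and 3.78 CPM and Mixed IR 3.00, 3.42 and 3.31 CPM, a fall with log2 -0.80 (SE 0.23, adjusted p 0.00627). Without Mixed NIR replicate 2 the change was -0.43 and was not called. DDIT3 rests on 55 to 277 counts per library, and the annotation places a second coding gene over it on its own strand and MARS1 and MBD6 on the other, so its absolute level is uncertain.

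TRIB3 is a pseudokinase that ATF4 and CHOP induce and that binds ATF4 and AKT, encoded on chromosome 20 (380760 to 397559, plus strand). MCF10A had the highest levels, with 55.7, 60.6 and 51.2 CPM without and 50.2, 62.4 and 55.0 CPM with irradiation, which overlapped (log2 -0.02, SE 0.07, adjusted p 0.833). HCT116 had 23.3, 24.9 and 30.7 CPM without and 17.7, 16.5 and 15.6 CPM with irradiation, a 1.57-fold fall (log2 -0.65, SE 0.11, adjusted p 2.8e-05). Mixed NIR had 20.4, 29.4 and 18.4 CPM and Mixed IR 19.3, 17.8 and 15.5 CPM. The mixed groups overlapped, and the log2 fold change of -0.40 (SE 0.14, adjusted p 0.018) became -0.17 and was not called without Mixed NIR replicate 2. The call was also lost without Mixed IR replicate 3 (-0.32).

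CHAC1, an enzyme that degrades glutathione, is encoded on chromosome 15 (40953471 to 40956512, plus strand) and was low, with 8 to 270 counts per library. MCF10A NIR had 0.235, 0.507 and 0.820 CPM and MCF10A IR 1.32, 2.44 and 2.29 CPM, a 3.86-fold rise without overlap (log2 1.95, SE 0.42, adjusted p 2.6e-04). HCT116 NIR had 1.71, 3.92 and 4.85 CPM and HCT116 IR 1.80, 2.99 and 2.95 CPM, which overlapped (log2 -0.42, SE 0.30, adjusted p 0.259). Leaving out HCT116 NIR replicate 1, the lowest of its group, gave a called fall with log2 -0.77. In the mixed cultures the sign rested on 1 library. Mixed NIR had 1.29, 7.79 and 1.47 CPM and Mixed IR 3.15, 2.30 and 3.31 CPM, with log2 -0.31 (SE 0.43, adjusted p 0.578) over all libraries and a called rise of 1.05 without Mixed NIR replicate 2.

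PPP1R15A, the stress-induced subunit that brings protein phosphatase to eIF2, is encoded on chromosome 19 (48872421 to 48876058, plus strand). It was at 23.8, 23.4 and 23.3 CPM in MCF10A NIR and 49.4, 51.4 and 45.5 CPM in MCF10A IR, a 2.05-fold rise (log2 1.03, SE 0.07, adjusted p 1.8e-12). MCF10A IR overlapped Mixed NIR and HCT116 NIR and lay above every HCT116 IR and Mixed IR library. HCT116 had 41.8, 40.7 and 47.5 CPM without and 43.6, 37.8 and 39.9 CPM with irradiation, which overlapped (log2 -0.09, SE 0.08, adjusted p 0.373). Mixed NIR had 41.6, 53.1 and 44.3 CPM and Mixed IR 43.8, 40.7 and 38.4 CPM (log2 -0.21, SE 0.09, adjusted p 0.0576). A fall was called there with no filter (-0.22), without abundant genes or with counts halved (-0.21 each), and without Mixed NIR replicate 1 (-0.29), Mixed NIR replicate 3 (-0.25) or Mixed IR replicate 1 (-0.26). Without Mixed NIR replicate 2 the value was -0.10 and was not called. PPP1R15B, the constitutive subunit for the same phosphatase, fell in all 3 cultures, with log2 -0.26 in MCF10A, -0.33 in HCT116 and -0.37 in the mixed cultures.

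The last 3 genes are enzymes of amino acid synthesis, and PHGDH fell in every culture. PHGDH, which takes the first step of serine synthesis, is encoded on chromosome 1 (119711934 to 119744215, plus strand). MCF10A NIR had 47.2, 47.4 and 46.4 CPM and MCF10A IR 16.6, 15.5 and 14.4 CPM, a 3.08-fold fall (log2 -1.62, SE 0.08, adjusted p 5.2e-16). HCT116 NIR had 95.1, 90.4 and 99.6 CPM and HCT116 IR 19.1, 21.1 and 27.9 CPM, a 4.19-fold fall (log2 -2.07, SE 0.10, adjusted p 4.3e-14). None of these groups overlapped. Mixed NIR had 84.7, 101 and 75.9 CPM and Mixed IR 28.4, 28.1 and 28.7 CPM, a 3.13-fold fall (log2 -1.64, SE 0.09, adjusted p 2.2e-12) that stayed called without Mixed NIR replicate 2, at -1.52.

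PSAT1, which takes the next step of the same pathway, is encoded on chromosome 9 (78297125 to 78330093, plus strand) and fell in MCF10A alone among the 3 tests. MCF10A NIR had 110, 118 and 114 CPM and MCF10A IR 69.6, 66.3 and 77.3 CPM, without overlap (log2 -0.70, SE 0.06, adjusted p 2.0e-11). HCT116 had 119, 120 and 128 CPM without and 125, 131 and 123 CPM with irradiation, which overlapped (log2 0.05, SE 0.06, adjusted p 0.478). Mixed NIR had 127, 169 and 105 CPM and Mixed IR 130, 131 and 134 CPM, where the non-irradiated libraries spread on both sides of the irradiated ones (log2 -0.05, SE 0.10, adjusted p 0.739, and 0.16, not called, without Mixed NIR replicate 2). PSPH, the last enzyme of serine synthesis, rose in HCT116 from a mean of 37.9 to 54.1 CPM (log2 0.52, SE 0.07), while PHGDH fell there and PSAT1 was not called.

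ASNS, asparagine synthetase, is encoded on chromosome 7 (97851677 to 97928441, minus strand). HCT116 NIR had 7.35, 8.33 and 10.3 CPM and HCT116 IR 1.61, 1.81 and 3.22 CPM, a 3.96-fold fall without overlap (log2 -1.98, SE 0.22, adjusted p 9.2e-08). MCF10A held 0.412, 0.423 and 0.717 CPM without and 0.257, 0.438 and 0.500 CPM with irradiation, on 7 to 21 counts per library, and no change was detectable at that depth (log2 -0.37, SE 0.54, adjusted p 0.585). Mixed NIR had 3.15, 11.3 and 3.22 CPM and Mixed IR 2.30, 1.87 and 3.37 CPM, which overlapped. The fall in the mixed cultures (log2 -1.27, SE 0.36, adjusted p 0.00585) was -0.37 and not called without Mixed NIR replicate 2, and it was not called in DESeq2 with all libraries. A readthrough transcript in RefSeq (CZ1P-ASNS) and a processed transcript in GENCODE on the same strand overlap ASNS and have no row in the tables, so the level of ASNS counted here is uncertain and may be only part of its reads. Rows for pseudogenes of ATF4, ASNS and PSAT1 held at most 17 counts in any library, which for ASNS is within the range of its own counts in MCF10A.

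**Figure D3:**
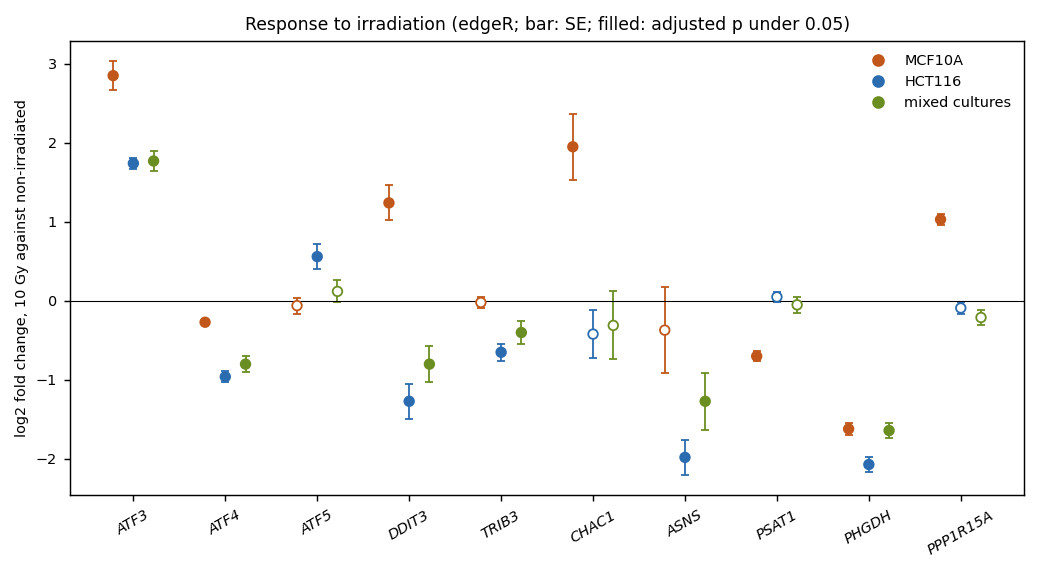
Response of each gene to 10 Gy in MCF10A, HCT116 and the mixed cultures. The vertical axis is edgeR's log2 fold change against non-irradiated libraries, bars are SE and filled points have an adjusted p under 0.05; ATF3 is above 0 and PHGDH below 0 in all 3, and DDIT3 is above 0 in MCF10A at 1.24 and below 0 in HCT116 at -1.27.

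Whether the 2 lines responded differently was tested directly, as the interaction of line and irradiation over the 12 monoculture libraries. All 10 genes were called. HCT116 had the lower response for 8 genes and higher for ATF5 and PSAT1. Over 18179 genes, 21.9% were called lower and 15.4% higher, and the median difference was -0.10 over all genes and -0.98 over the 10. Leaving out mitochondrial and the 10 most abundant other genes moved the median of all genes to -0.01. The largest differences were in DDIT3 (log2 -2.59, SE 0.32, adjusted p 4.5e-07) and CHAC1 (log2 -2.46, SE 0.56, adjusted p 0.00104). ASNS (log2 -1.70, SE 0.50), PPP1R15A (-1.20, SE 0.11), ATF3 (-1.19, SE 0.16), ATF4 (-0.77, SE 0.08), TRIB3 (-0.71, SE 0.14) and PHGDH (-0.52, SE 0.13) followed. PSAT1 differed by 0.68 (SE 0.08) and ATF5 by 0.55 (SE 0.18). For ATF3 both lines rose, and for ATF4 and PHGDH both fell, so there the test speaks of size and not of direction. Line, genotype and medium cannot be told apart in this comparison. The call of ATF5 was lost without MCF10A NIR replicate 1 (0.45), HCT116 NIR replicate 1 (0.46), HCT116 NIR replicate 2 (0.51) or HCT116 IR replicate 1 (0.44). That of PHGDH was lost without MCF10A IR replicate 1 or HCT116 IR replicate 2 (-0.37 each), and that of ASNS without MCF10A IR replicate 3 (-1.39) or with 1 fit over all 18 libraries (-1.61).

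Before irradiation, HCT116 differed from MCF10A in 8 of the 10 genes, 6 higher and 2 lower, beside 38.7% of 16568 genes called higher and 36.1% lower. ATF3 was 17.2-fold higher (log2 4.10, SE 0.15) and ASNS 14.7-fold higher (log2 3.88, SE 0.27). ASNS rests on 14 to 21 counts per library in MCF10A NIR and 7 to 17 in MCF10A IR. Its counted level is uncertain, as given above, so the size of its difference between the lines is uncertain too. CHAC1 (log2 2.56), DDIT3 (1.73), PHGDH (0.82) and PPP1R15A (0.69) were also higher, and ATF5 (-1.92) and TRIB3 (-1.29) lower. ATF4 (-0.09) and PSAT1 (-0.10) were not called, and their signs turned to 0.11 each with upper-quartile factors. Without HCT116 NIR replicate 3, both ATF4 at -0.20 and PSAT1 at -0.14 were called lower. In CPM the levels go the other way. Every HCT116 NIR library was above every MCF10A NIR library for PSAT1, and mean ATF4 was 313 CPM in HCT116 NIR and 291 in MCF10A NIR. Over all libraries, library size alone gave 0.11 for ATF4 and 0.10 for PSAT1, so their signs depend on the scaling between lines. After irradiation, 4 genes were higher in HCT116 and 5 lower, beside 38.1% and 36.8% of 16932 genes. ATF3 (log2 2.92) and ASNS (2.21) stayed higher, DDIT3 (-0.84), PPP1R15A (-0.50) and ATF4 (-0.84) were lower, and CHAC1 (0.12) was not called. PSAT1 (0.60) was now higher as well, and PHGDH (0.32) lost its call on leaving out MCF10A IR replicate 2, MCF10A IR replicate 3 or HCT116 IR replicate 3, where it was 0.31, 0.26 and 0.15.

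Set against HCT116 alone, the mixed cultures differed little in these genes. With edgeR, none of the 10 was called between Mixed NIR and HCT116 NIR (1, ATF5, had an unadjusted p under 0.05 in edgeR and in DESeq2, and DESeq2 called none), beside 0.887% of 16455 genes called higher and 1.15% lower. Without Mixed NIR replicate 2, ATF3 (log2 -0.43) and ASNS (-1.42) were called lower. Between Mixed IR and HCT116 IR only PHGDH was called, higher by 0.32 (SE 0.10) with an adjusted p just under the threshold, beside 5.08% of 17137 genes higher and 3.48% lower. That call was lost with library size alone, in DESeq2 and on leaving out any 1 library other than HCT116 IR replicate 3, with values from 0.21 to 0.33. With library size alone (0.17) and in DESeq2 (0.15) ATF4 was called higher instead. With edgeR, none of the 10 responses was called as different between the mixed cultures and HCT116 (1, PHGDH, had an unadjusted p under 0.05 in edgeR and in DESeq2, and DESeq2 called none), beside 0.681% of 18072 genes higher and 0.149% lower. Without Mixed NIR replicate 2, ASNS differed by 1.60 and was called. In these bulk libraries fewer cells of a line and less RNA per cell cannot be told apart, and each mixed comparison shares its HCT116 libraries with the tests above.

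The genes around the pathway were read from 6 lists. These lists were also chosen with earlier results of these data known, and no count was tested against its share. The first list holds the eIF2alpha kinases, the eIF2 and eIF2B subunits and partners that sense or reset the pathway. In MCF10A 1 of its 15 genes rose and 8 fell, beside 26.2% and 29.2% of all genes. The gene that rose was EIF2AK3, the endoplasmic reticulum kinase PERK, from a mean of 24.6 to 36.1 CPM (log2 0.53, SE 0.08, adjusted p 1.2e-06). EIF2B3, an eIF2B subunit, fell from 50 to 33.7 CPM (log2 -0.59). In HCT116 6 rose and 3 fell, beside 25.3% and 27.2% of all genes. The amino acid-sensing kinase EIF2AK4 (GCN2) went there from 101 to 150 CPM (log2 0.57, SE 0.06, adjusted p 1.5e-08). EIF2AK3 was not called there (log2 -0.01). In the mixed cultures 4 rose and 3 fell, beside 24% and 25.4% of all genes. Without Mixed NIR replicate 2 these counts were 4 and 2, beside 21% and 22.1%. EIF2AK2, the kinase PKR that senses double-stranded RNA, went in the mixed cultures from 187 to 268 CPM (log2 0.50, SE 0.06). The 3 lower in HCT116 and both counts in the mixed cultures are near the shares over all genes or under them. The response difference between HCT116 and MCF10A was called higher for 9 of the 15, beside 15.4% of all genes. It was lower for 2, EIF2AK3 (-0.62) and EIF2AK1 (-0.41), beside 21.9%.

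Of 9 amino acid transporters tested, 5 fell in MCF10A, 5 in HCT116 and 6 in the mixed cultures, beside 29.2%, 27.2% and 25.4% of all genes. None rose in HCT116 with edgeR (1 was higher at an unadjusted p under 0.05, in edgeR and in DESeq2). The cystine transporter SLC7A11 went from 65.6, 66.9 and 83.1 CPM to 22.1, 24.5 and 26.5 CPM (log2 -1.56, SE 0.09, adjusted p 2.8e-12). The neutral amino acid transporter SLC38A2 fell in HCT116 from 1050, 1140 and 1170 CPM to 574, 612 and 626 CPM (log2 -0.88, SE 0.06). In MCF10A SLC38A2 rose from 965, 909 and 967 CPM to 1330, 1260 and 1290 CPM (log2 0.43, SE 0.04), and the difference between the lines was -1.39 (SE 0.07, adjusted p 5.6e-14). SLC7A11 fell in MCF10A too (log2 -0.41, SE 0.07), with a difference between the lines of -1.22. Over the list, MCF10A had 2 higher with edgeR and DESeq2 (3 at an unadjusted p), beside 26.2% of all genes. The mixed cultures had none higher with either, also at an unadjusted p, beside 24%. The medians were -0.18 in MCF10A, -0.42 in HCT116 and -0.62 in the mixed cultures, or -0.37 in the latter without Mixed NIR replicate 2, when 5 fell. Without HCT116 NIR replicate 3, 2 transporters were called higher in HCT116, beside 23.6% of all genes, with the same number lower as before. SLC7A11 fell in the mixed cultures, with log2 -0.70, or -0.40 without Mixed NIR replicate 2, still called. Its response difference, mixed minus HCT116, was called by edgeR at 0.87 (SE 0.20, adjusted p 0.029). DESeq2 called no transporter there, nor did edgeR without HCT116 NIR replicate 3. Mean SLC7A11 was 52.7 CPM in Mixed IR, 24.3 in HCT116 IR and 153 in MCF10A IR. Between Mixed IR and HCT116 IR, edgeR called 3 of 9 transporters higher and 0 lower, beside 5.08% and 3.48% of all genes.

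Among 8 genes of serine, one-carbon, proline and cysteine synthesis, 1 rose and 3 fell in MCF10A, 2 rose and 5 fell in HCT116, and 2 rose and 3 fell in the mixed cultures (1 and 3 without Mixed NIR replicate 2). Over all genes the shares higher and lower were 26.2% and 29.2% in MCF10A and 25.3% and 27.2% in HCT116. In the mixed cultures they were 24% and 25.4% (21% and 22.1% without Mixed NIR replicate 2). The 3 lower in MCF10A and the 2 higher in HCT116 and in the mixed cultures are near these shares. Medians were -0.22, -0.37 and -0.24 (-0.13 without Mixed NIR replicate 2). The mitochondrial folate enzymes SHMT2 and MTHFD2 fell in all 3. SHMT2 had log2 -0.64 in MCF10A, -0.57 in HCT116 and -0.48 in the mixed cultures, and MTHFD2 -0.39, -0.45 and -0.41. Among 12 cytosolic aminoacyl-tRNA synthetases, which charge tRNAs and are read beside the same shares, 1 rose and 7 fell in MCF10A. In HCT116 3 rose and 6 fell, and AARS1 had the largest fall, from 232, 240 and 276 CPM to 118, 127 and 123 CPM (log2 -1.01, SE 0.07, adjusted p 1.7e-11). In MCF10A AARS1 fell with log2 -0.24, and the difference between the lines was -0.85 (SE 0.08). In the mixed cultures 3 rose and 6 fell (3 and 5 without Mixed NIR replicate 2), with AARS1 at -0.80 and, without Mixed NIR replicate 2, -0.67. The 3 synthetases higher in HCT116 and in the mixed cultures are near the shares over all genes.

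Among other targets and partners of ATF4, GDF15, a stress cytokine, rose in all 3 cultures. It was at 9.82, 11.0 and 12.4 CPM in MCF10A NIR and 35.6, 47.5 and 41.0 CPM in MCF10A IR (log2 1.88, SE 0.10, adjusted p 8.1e-15). In HCT116 it went from 149, 180 and 202 CPM to 503, 410 and 445 CPM (log2 1.36, SE 0.09, adjusted p 7.1e-12), and in the mixed cultures the log2 fold change was 1.56. SESN2, a stress-induced inhibitor of mTORC1, rose with it in all 3, by 0.86, 1.09 and 0.81, the last being 1.14 without Mixed NIR replicate 2. DDIT4, another inhibitor of mTORC1, fell in all 3, from a mean of 474 to 218 CPM in MCF10A (log2 -1.14) and from 476 to 219 CPM in HCT116 (log2 -1.11), and with log2 -0.44 in the mixed cultures, where DESeq2 did not call it (-0.43, adjusted p 0.182). CEBPG, a dimer partner of ATF4, fell in HCT116 (log2 -0.65) and the mixed cultures (-0.53) and was not called in MCF10A (-0.04). Over the list, 6 of 13 rose and 3 fell in MCF10A, beside 26.2% and 29.2% of all genes. In HCT116 3 of 12 rose and 7 fell, beside 25.3% and 27.2%. In the mixed cultures 4 of 13 rose and 4 fell, beside 24% and 25.4%. The 3 lower in MCF10A, the 3 higher in HCT116 and both counts in the mixed cultures are near these shares.

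The IRE1 and ATF6 branches and the chaperones of the endoplasmic reticulum, a stress response that runs beside the ATF4 branch, split between the lines. In MCF10A 8 of 17 genes rose and 4 fell, beside 26.2% and 29.2% of all genes, so the lower count is not above its share. In HCT116 2 rose and 13 fell, beside 25.3% and 27.2%. In the mixed cultures 2 rose and 10 fell, beside 24% and 25.4%. HERPUD1, which acts in degrading proteins of that organelle, went from 40.4, 39.0 and 40.0 CPM to 86.2, 73.2 and 72.8 CPM in MCF10A (log2 0.94, SE 0.07, adjusted p 1.1e-12). In HCT116 it went from 52.6, 46.2 and 49.5 CPM down to 36.2, 34.2 and 33.6 CPM (log2 -0.50, SE 0.08, adjusted p 9.7e-06). The response difference was called lower in HCT116 for 12 of the 17 genes (11 in DESeq2), beside 21.9% of all genes. It was higher for none, also at an unadjusted p and in DESeq2, beside 15.4% of all genes. HERPUD1 stood at -1.52 (SE 0.10) and the chaperone HSPA5, or BiP, stood at -0.71 (SE 0.07). DNAJB9, a co-chaperone induced by IRE1 and XBP1, rose in all 3 cultures, by 1.07 in MCF10A, 0.45 in HCT116 and 0.68 in the mixed cultures. Without Mixed NIR replicate 2 the counts in the mixed cultures were 1 higher and 8 lower, beside 21% and 22.1% of all genes.

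**Figure D4:**
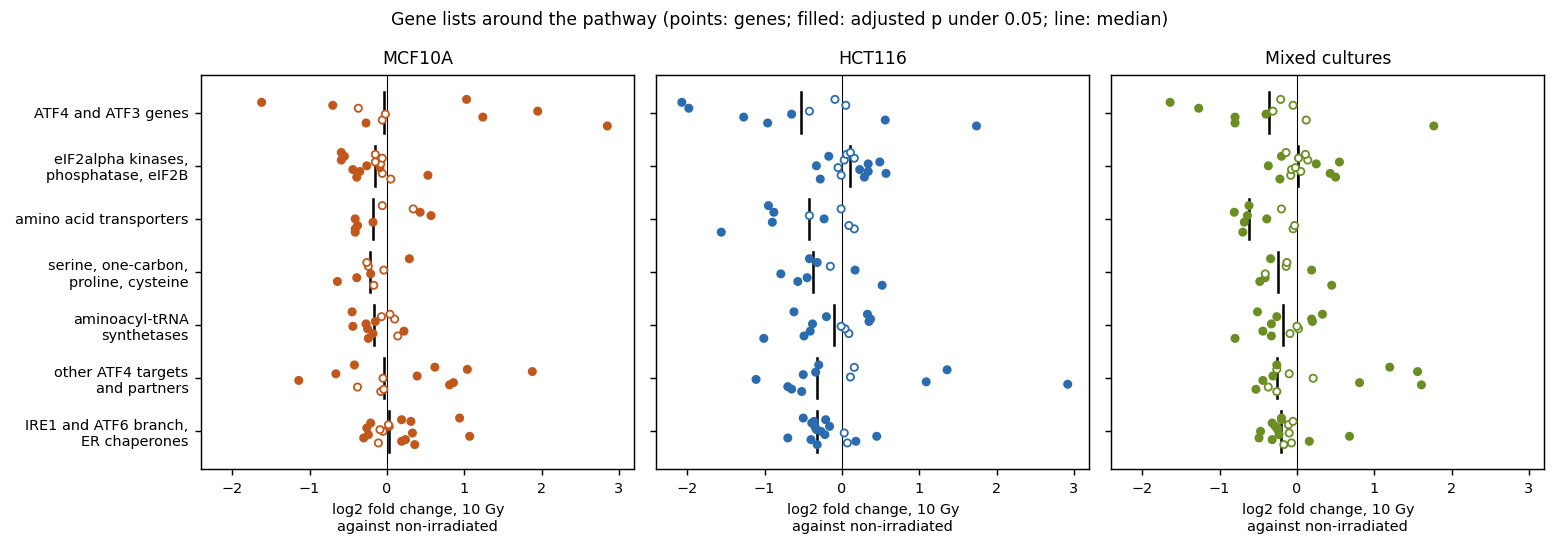
Log2 fold changes after 10 Gy for the 10 genes and 6 lists around the pathway, 1 panel per kind of culture. Points are genes, filled where the adjusted p is under 0.05, and vertical lines are list medians; the lowest list lies at a median of 0.03 in MCF10A and -0.32 in HCT116.

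The genes whose pattern over the 6 group means was most like that of a given member were also named, as a description. Likeness was the root mean square difference of log2(CPM + 0.5), each gene centred on its own mean, over 10907 genes. For ATF3 the closest were GDF15 at 0.27, IFIT1 at 0.38 and OASL at 0.45. For CHAC1 they were CSRNP1 at 0.12, STYK1 at 0.13 and PLXNA3 at 0.13. For ASNS they were OLMALINC at 0.11, LINC00659 at 0.18 and TMEM158 at 0.21. With 5 CPM in place of 0.5, 1 of the 3 genes named for ATF3 (IFIT1) and none of those named for CHAC1 and ASNS was named again. GDF15 was then not among the 3 closest to ATF3. The names therefore depend on that choice, and for CHAC1 and ASNS, low genes, wholly so.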

How the data were processed

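Raw counts per gene symbol were deposited by the authors, 1 table per library, without normalization. fastp, STAR, featureCounts and GRCh38 are named in the submitters' processing notes, with no version or role, and the strand setting of the counting is not given in the sources used here. Of the values from 1 to 10, 68.3% were even, so both mates of a pair may have been counted and counting error was not taken from the counts alone. CPM is a gene's count over the library total times 1e+06. Each comparison used only the libraries of its groups, in edgeR 4.0.16 (R 4.3.3) with TMM factors, filterByExpr, the 2-sided quasi-likelihood test and Benjamini-Hochberg adjustment over all genes tested, and all 10 genes passed the filter in every comparison. SE is the log2 fold change over the root of F. DESeq2 1.42.0 was an alternative, beside other scalings, filters and left-out libraries, and the edgeR script was tested on simulated data. Replicate libraries differed by more than sampling noise (chi-squared per gene 4.77 to 14, or 2.38 to 7 with counts halved), so none was a copy. The series text calls the replicates biological. Named from each list were at most 2 genes per direction with the largest called change and a mean of at least 10 CPM in a compared group. The text prints a part of those, and further list genes (EIF2AK3 and SLC38A2 in HCT116, PPP1R15B and AARS1 in MCF10A, CEBPG in MCF10A, HSPA5 and TXNIP) were named after their values were seen. The members and lists were chosen with earlier results of these data known. Sequences and positions are from RefSeq (GRCh38.p14) and GENCODE 29, matched by symbol. A withheld gene, and the part of the HCT116 label that names it, are not reported here.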

Additional observations from a re-analysis of the deposited data

Results flagged for a closer look

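Each of the 10 genes had a response to irradiation that differed between HCT116 and MCF10A by the interaction test of edgeR. The calls of ATF5, PHGDH and ASNS were lost in some alternatives, as given above, and ASNS in MCF10A rests on 7 to 21 counts per library. The differences on the log2 scale, HCT116 minus MCF10A, were -2.59 for DDIT3, -2.46 for CHAC1, -1.70 for ASNS, -1.20 for PPP1R15A, -1.19 for ATF3, -0.77 for ATF4, -0.71 for TRIB3, -0.52 for PHGDH, 0.55 for ATF5 and 0.68 for PSAT1. In that comparison 37.3% of 18179 genes were called in either direction. The lines also differ in tissue of origin, genotype and medium, which cannot be told apart here. With 3 libraries per group, no single library was tested as an outlier.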

How the results depend on the processing

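Every gene called in MCF10A or HCT116 after irradiation kept its direction and call under other scalings, DESeq2, other filters, halved counts, 1 fit over 18 libraries and each left-out library. Leaving out 1 library moved the number of the 10 genes called in these comparisons. For Mixed IR against Mixed NIR, 1 to 2 were higher and 2 to 6 lower, and for HCT116 NIR against MCF10A NIR 2 to 4 were lower. For Mixed NIR against HCT116 NIR 0 to 2 were lower, and for Mixed IR against HCT116 IR 0 to 1 were higher. For the response differences 1 to 2 were higher in HCT116 minus MCF10A, and 0 to 1 in Mixed minus HCT116. Without a filter, 1 response (PHGDH, 0.43) was higher in Mixed minus HCT116.

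Signs turned only for values that were not called in the main test. In MCF10A, upper-quartile factors gave 0.02 for ATF5 and 0.06 for TRIB3, library size alone gave 0.00 for TRIB3, and left-out libraries gave -0.14 to 0.04 for ATF5 and -0.11 to 0.05 for TRIB3. Between the non-irradiated lines, upper-quartile factors gave 0.11 for ATF4 and for PSAT1, and library size alone 0.11 and 0.10. In the mixed cultures, left-out libraries gave -0.00 to 0.28 for ATF5, -0.70 to 1.05 for CHAC1 and -0.20 to 0.16 for PSAT1, with the turned sign in each case without Mixed NIR replicate 2. With left-out libraries CHAC1 between the irradiated lines ran from -0.12 without MCF10A IR replicate 1 to 0.32, and was -0.02 without HCT116 IR replicate 2. ASNS in MCF10A had no value with counts halved, since it then failed the filter, and depth limits it and CHAC1 most. The causes were not tested.

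Replicate numbers shared across groups were not taken to pair libraries: the correlation of their residuals lay between -0.15 and 0.20 over 21 pairs. Between the mixed cultures and HCT116 it was 0.12, -0.01 and 0.20 without irradiation, in replicates 1 to 3. With irradiation it was 0.16, 0.06 and 0.05 there, and in the other comparisons it was at most 0.03. With the replicate number as a block, 2 genes (PHGDH and ATF4) in place of 1 were higher in Mixed IR than in HCT116 IR, CHAC1 in the mixed cultures turned to 0.11, and no other count of the 10 genes moved by over 1.5 times. Of all genes, 716 in place of 335 were then called between Mixed NIR and HCT116 NIR, and 2220 in place of 1467 between Mixed IR and HCT116 IR. Between Mixed NIR and HCT116 NIR, DESeq2 called 575, no filter 671 and 1 fit over 18 libraries 768, with 63.8% of the latter higher against 43.6%. For Mixed minus HCT116, DESeq2 called 327 (61.5% higher) and no filter 336, against 150 (82% higher). Of the called genes, the share higher with upper-quartile factors was 57.5% against 47.4% in MCF10A and 62.4% against 51.8% between the non-irradiated lines (62.2% with library size alone). Between the irradiated lines library size alone gave 62.4% against 50.9%, and for HCT116 minus MCF10A leaving out abundant genes gave 52.5%, no filter 51.9% and the fit over 18 libraries 51.8%, against 41.3%. In Mixed IR against HCT116 IR the fit over 18 libraries gave 80.5% against 59.4%. Library size alone and upper-quartile factors put the median of all genes between the non-irradiated lines at 0.25, against 0.05.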

Other observations

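Of 17 genes of the IRE1 and ATF6 branches, 8 were called higher in the irradiated mixed cultures than in irradiated HCT116 and none lower, with edgeR and with DESeq2 (at an unadjusted p under 0.05, 10 were higher and none lower), beside 5.08% of all genes called higher. The median of the 17 was 0.15, beside 0.00 over all genes. HSPA5 was at 937, 996 and 956 CPM in Mixed IR and at 733, 774 and 763 CPM in HCT116 IR, without overlap (log2 0.34, SE 0.04, adjusted p 2.7e-06). HERPUD1 was at 52.5, 46.7 and 50.7 CPM against 36.2, 34.2 and 33.6 CPM (log2 0.52, SE 0.07, adjusted p 1.1e-05). In MCF10A IR, HSPA5 was at 1090, 1040 and 1100 CPM and HERPUD1 at 86.2, 73.2 and 72.8 CPM. The part of MCF10A RNA in these differences was not tested. GDF15 was lower in the mixed cultures than in HCT116, with log2 -0.61 (SE 0.11) without and -0.40 (SE 0.06) with irradiation. The value without irradiation was -0.76 without Mixed NIR replicate 2, and DESeq2 did not call it with all libraries (adjusted p 0.0568).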
